A study of Cavia porcellus with 35 samples.

Results

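The genes described here are 9 markers of upper cortical layer neurons, CUX1, CUX2, RORB, LAMP5, POU3F2, POU3F3, LMO4, MDGA1 and BHLHE22, followed by symbol, ignoring case, through the 4 count tables of the series. Of these 9, 8 were among the 12100 genes listed in at least 1 table and 7 were listed in all 4. POU3F3 was in none of the tables and was not analysed here, and CUX2 was not listed for the F3 females. Every member listed in a table passed the filter on low counts there. BHLHE22 was selected on its decrease between control and sGC animals in F2 females, so its F2 difference is given as values with no test.

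RNA was sequenced from the prefrontal cortex of 35 juvenile guinea pigs (Cavia porcellus) at postnatal day 40, with 1 library per animal. The study took its punches from infralimbic cortex and cingulate area 1. The F1 animals were born to mothers given betamethasone, a synthetic glucocorticoid (sGC), or saline (control) during pregnancy, and the F2 and F3 females descended from them through the paternal line. There were 4 control and 4 sGC females in each of the F1, F2 and F3 generations, and 5 control and 6 sGC F1 males. The labels give no genotype or strain, and F2 and F3 sGC animals were not themselves treated. Per the study, the females analysed came from different litters. The same is not given for the males in the sources used here. These sources also do not say whether F2 or F3 litters shared a father or a founder mother. The p-values of F1 males and of F2 and F3 females therefore measure the spread between the animals sampled.

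The cerebral cortex is built in layers, and the projection neurons of the upper layers mostly connect cortical areas with each other, whereas those of the deep layers send axons to subcortical targets. Upper layer identity is set by transcription factors, among them the CUX homeobox proteins and the POU3F (BRN) proteins, and is read out by cofactors and by proteins of the cell surface and membrane. The markers are not exclusive to these cells. RORB is strongest in layer 4, LMO4 and CUX1 are also found in other neurons, and LAMP5 also marks a class of interneurons.

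Libraries held 12819964 to 31763585 reads assigned to genes. Those of F1 males held 25697953 to 31763585 and those of F1 females 13908007 to 16951061. Sex in the F1 animals therefore cannot be told apart from table and depth. Levels are CPM, in which read counts are divided by library size, with TMM factors that adjust for library composition. Because each table was counted separately, levels are compared within a table only. One label field names the prefrontal cortex and the extraction text names the paraventricular nucleus. The summed level of the paraventricular markers was 6.58 to 19.3 CPM in the 35 animals, and OTP and TRH, which mark that nucleus, were not listed. Markers of cortical glutamatergic neurons were present in every table, although TBR1 was not listed. Several F1 female libraries stood apart in cell type markers. Their glutamatergic sums were 1225, 397, 211 and 295 CPM in control animals 1 to 4 and 1622, 1491, 1091 and 4479 CPM in sGC animals 1 to 4. Their striatal medium spiny neuron sums were 2710, 594, 923 and 2569 CPM in the controls and 290, 249, 323 and 628 CPM in the sGC animals. All 8 striatal markers tested were lower in sGC animals. Of these, 5 had an FDR (defined below) under 0.05, against 16.5% of all genes in either direction. In F3 females the glutamatergic sum was also lower in controls (605 to 1017 CPM) than in sGC animals (1169 to 1445 CPM). Striatal sums there were 334 to 1019 CPM in controls and 208 to 475 CPM in sGC animals, with all 8 markers tested lower. Sums of general neuron markers were 5208 to 5739 CPM in F1 female controls and 7258 to 8434 CPM in F1 female sGC animals. In F3 females they were 4915 to 6696 CPM in controls and 7639 to 8472 CPM in sGC animals. The part of these differences in the members' differences was not tested. In these bulk samples, fewer cells of a type and less RNA per cell cannot be told apart.

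**Figure D1:**
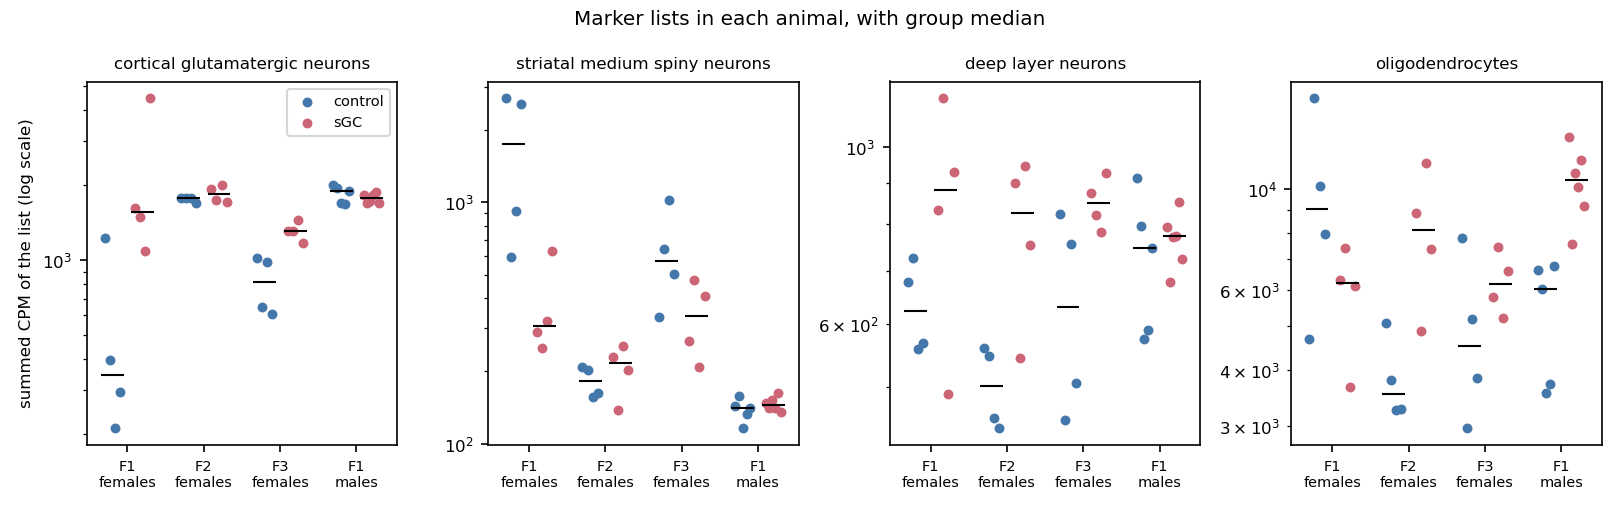
Summed CPM (log axis) of 4 cell type marker lists in each animal, control in blue and sGC in red, with the group median as a bar, for the 4 tables. In F1 females glutamatergic sums were 211 to 1225 CPM in controls and 1091 to 4479 CPM in sGC animals. For oligodendrocyte sums in F1 males, every sGC animal (7558 CPM or more) lay above every control (6772 CPM or less).

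Antenatal sGC was compared with control in each table with edgeR's quasi-likelihood test, and a member was called where its FDR, the p-value adjusted over every gene tested in that table, was under 0.05. In F1 females 3 of 8 members were called, LMO4 higher and CUX1 and MDGA1 lower, against 16.5% of all genes. In F1 males 1 of 8 was called, LMO4 lower, against 9.22% of all genes. None of the 7 members tested in F2 females was called, against 0.278% of all genes, and none of 7 in F3 females, against 1.34%. At an unadjusted p under 0.05, however, 5 of the 7 tested F2 members were lower and none higher, where 7.35% of all genes were lower. The likelihood ratio test called 3 F2 members and 4.8% of all genes, DESeq2 called 2 members and 4.25% of all genes, and neither called any in F3 females, where 2 members had an unadjusted p under 0.05. Both of these F3 members were lower in sGC animals, against 8.07% of all genes.

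The members' median log2 fold change, sGC against control, was 0.14 in F1 females, -0.67 in F2 females, -0.32 in F3 females and -0.23 in F1 males. The corresponding medians over all genes tested were -0.03, 0.01, -0.01 and 0.00 to 2 decimals. The F2 median without BHLHE22 was -0.61. In F3 females no member had groups without overlap (0 of 7, against 10.3% of all genes). Leaving BHLHE22 aside, all 7 members tested in F2 females had a log2 fold change below 0, where 47.9% of all genes did. In F3 females 5 of 7 did (51.8% of all genes), in F1 males 7 of 8 (50.0%) and in F1 females 4 of 8 (54.5%). Because the members varied together between animals (median pairwise r 0.73 in F2 females, described below), they do not count as separate outcomes. They were also chosen with earlier results of these data known.

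**Figure D2:**
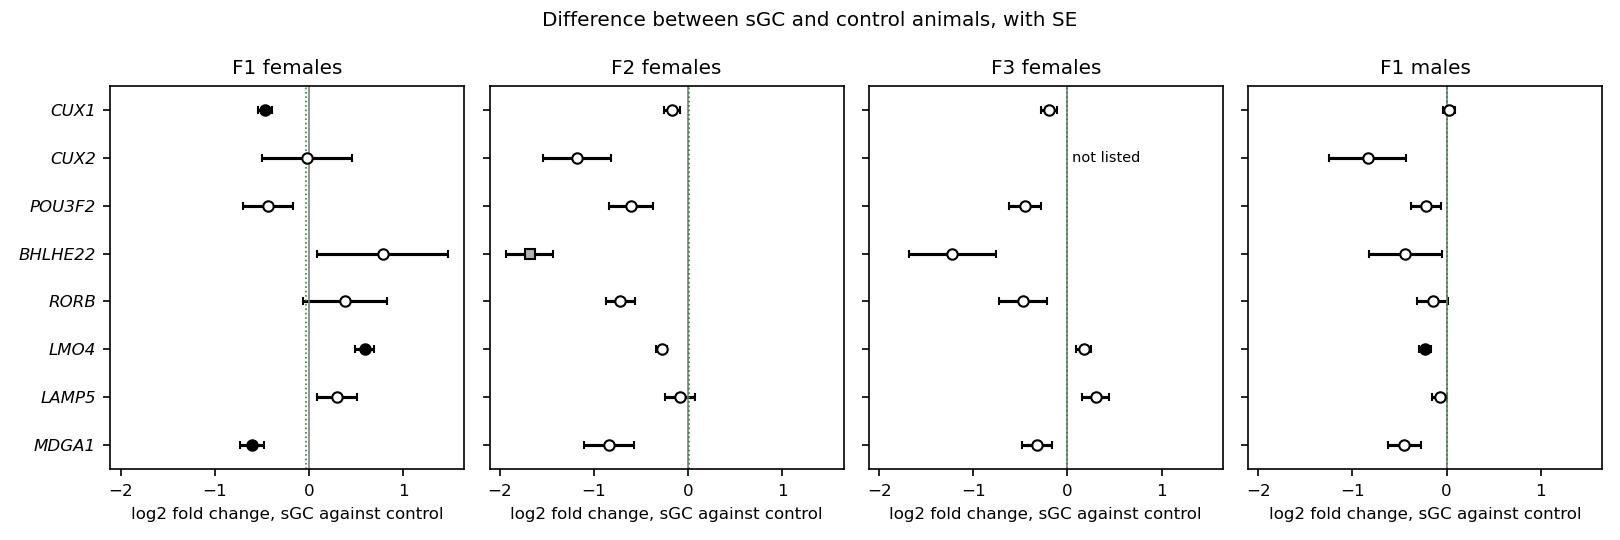
Log2 fold change of each member, sGC against control, with its standard error, in the 4 tables. Filled circles passed FDR 0.05, open circles did not, the grey square is BHLHE22 in F2 females, which was not tested, and the dotted line is the median of all genes. The F2 members all lie left of 0, whereas in F1 females LMO4 lies right of it at 0.59 and CUX1 and MDGA1 lie left of it at -0.47 and -0.60.

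Among the transcription factors, CUX1 is a homeodomain protein of upper layer neurons that shapes their dendrites and spines. In F1 females it measured 170, 146, 146 and 146 CPM in control animals 1 to 4 and 107, 102, 121 and 111 CPM in sGC animals 1 to 4. Every sGC animal lay below every control. CUX1 fell by 0.47 on the log2 scale (SE 0.074, FDR 0.00688, edgeR quasi-likelihood), a decrease of 27.7%. The call held with each of the 8 animals left out in turn. When the 2 controls with the highest striatal sums, animals 1 and 4, were left out together, the log2 fold change was -0.39 (edgeR FDR 0.0245). The 2 controls kept had glutamatergic sums of 397 and 211 CPM, against 1091 CPM or more in sGC animals. This omission therefore did not level the cell type markers, and their part in the CUX1 difference was not tested.

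F2 females gave CUX1 levels of 117, 128, 132 and 141 CPM in controls, against 111, 135, 104 and 110 CPM in sGC animals. In F3 females they were 117, 150, 143 and 144 CPM in controls, against 114, 132, 111 and 126 CPM in sGC animals. These groups overlapped in both generations, and neither difference passed the test (log2 fold change -0.17, SE 0.088, and -0.20, SE 0.088, edgeR FDR 0.357 and 0.291). F1 male controls measured 115, 107, 146, 131 and 117 CPM of CUX1, and the sGC males ranged from 121 to 131 CPM with a median of 125 CPM. The sGC males lay inside the range of the controls, with a log2 fold change of 0.02 (SE 0.066, edgeR FDR 0.862). The response to sGC differed between the F1 male and F1 female tables, by 0.49 on the log2 scale, male minus female (SE 0.106, edgeR interaction FDR 0.00237).

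CUX2, the paralog of CUX1 and the more selective of the pair for upper layers, varied widely between animals. F2 controls measured 29.1, 19.3, 43.1 and 37.3 CPM and F2 sGC animals 12.1, 27.4, 6.74 and 10.9 CPM. Of the sGC animals 3 lay below every control, and animal 2 lay among the controls. The log2 fold change was -1.18 (SE 0.365, unadjusted p = 0.00789 in the edgeR quasi-likelihood fit, FDR 0.148), with an FDR of 0.0392 in the likelihood ratio test and 0.176 in DESeq2. Of the 8 omissions of 1 animal 1 made it a call, that of sGC animal 2 (log2 fold change -1.70, quasi-likelihood FDR 0.00721), and over the others the log2 fold change went up to -0.95 and the FDR up to 0.374.

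F1 females showed no common direction in CUX2, with 30.5, 14.6, 18.6 and 20.4 CPM in controls, against 14.8, 7.03, 43.8 and 17.3 CPM in sGC animals. The sGC group held both the lowest and the highest animal, and the log2 fold change was -0.02 (SE 0.477, edgeR FDR 0.977). F1 male controls measured 10.9, 21.9, 85.0, 37.1 and 20.6 CPM, against a range of 12.4 to 24.7 CPM and a median of 21.5 CPM in sGC males. Control animal 3 was far above the others, the groups overlapped and the difference did not pass the test (log2 fold change -0.84, SE 0.411, edgeR FDR 0.227).

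POU3F2 (BRN2) is a POU domain factor that acts in the production and migration of upper layer neurons. Its log2 fold change was below 0 in all 4 tables and was never called. In F2 females controls measured 28.1, 35.3, 45.5 and 42.2 CPM and sGC animals 19.7, 39.1, 17.6 and 22.9 CPM. Here too sGC animal 2 lay among the controls while the other 3 lay below all of them (log2 fold change -0.61, SE 0.231, edgeR FDR 0.232). The FDR was 0.00998 without that animal, the 1 of 8 omissions that gave a call, and up to 0.513 without another.

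F3 controls measured 41.4, 77.3, 57.5 and 61.3 CPM of POU3F2 and F3 sGC animals 46.1, 38.6, 50.8 and 38.0 CPM. Control animal 1 lay inside the sGC range, and the other 3 controls lay above it. The log2 fold change was -0.45 (SE 0.172, edgeR FDR 0.220), and the FDR was 0.0345 without that control, the 1 of 8 omissions that gave a call, and up to 0.522 without another animal. F1 females measured 40.4, 25.7, 24.8 and 31.5 CPM in controls, against 17.7, 13.6, 28.5 and 31.1 CPM in sGC animals, with overlap (log2 fold change -0.43, SE 0.265, edgeR FDR 0.278). F1 male controls measured 19.8, 31.4, 40.4, 39.2 and 26.2 CPM and sGC males 23.0 to 34.2 CPM with a median of 26.0 CPM. The sGC males lay inside the control range (log2 fold change -0.22, SE 0.164, edgeR FDR 0.449).

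BHLHE22 (BHLHB5) is a basic helix-loop-helix repressor that helps to set the area identity of postmitotic cortical neurons. In F2 females, where its decrease placed it on the list, controls measured 9.83, 18.9, 17.4 and 18.5 CPM and sGC animals 3.83, 7.53, 5.07 and 3.77 CPM. The groups did not overlap and the log2 fold change was -1.68 (SE 0.253), or 68.9% lower. BHLHE22 rested on 26 to 492 reads per library over all animals.

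F3 females, which the choice of BHLHE22 did not use, measured 3.74, 8.45, 1.77 and 9.79 CPM in controls, against 2.63, 2.18, 3.32 and 2.05 CPM in sGC animals. Control animal 3 was the lowest of all 8 and the other 3 controls lay above every sGC animal (log2 fold change -1.22, SE 0.462, edgeR FDR 0.216). In the F1 females, BHLHE22 had levels of 7.47, 2.08, 4.28 and 10.4 CPM in controls, against 3.51, 2.62, 22.0 and 13.9 CPM in sGC animals. The sGC animals 3 and 4 were above and animals 1 and 2 within the control range (log2 fold change 0.78, SE 0.696, edgeR FDR 0.453). F1 male controls measured 2.11, 8.54, 15.1, 16.7 and 9.90 CPM and sGC males 4.01 to 12.8 CPM with a median of 7.07 CPM, again inside the control range (log2 fold change -0.44, SE 0.389, edgeR FDR 0.536).

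RORB is a nuclear receptor that is strongest in layer 4 neurons, the cells that receive thalamic input. The layer of the cells that expressed it here was not measured. F2 controls measured 64.9, 70.8, 96.5 and 67.8 CPM and F2 sGC animals 40.0, 59.2, 38.5 and 44.7 CPM. All sGC animals lay below all controls, as were 4.02% of all genes. The log2 fold change was -0.72 (SE 0.154), a difference of -39.3%, with an FDR of 0.0568 in the edgeR quasi-likelihood test and 0.000805 in the likelihood ratio test. DESeq2 gave an FDR of 0.000708. Of the 8 omissions of 1 animal 2 gave a call, those of sGC animal 2 (edgeR FDR 0.00605) and control animal 1, and the highest FDR was 0.174.

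RORB in F1 females was 57.6, 33.3, 44.4 and 65.4 CPM in controls, against 34.4, 26.6, 122 and 78.6 CPM in sGC animals. As for BHLHE22, sGC animals 3 and 4 were the highest of the table, and sGC animal 2 was the lowest (log2 fold change 0.38, SE 0.449, edgeR FDR 0.576). Without sGC animal 3 the log2 fold change was -0.11. F3 controls measured 25.4, 68.3, 39.4 and 52.1 CPM and F3 sGC animals 28.7, 32.9, 39.8 and 31.7 CPM, with overlap (log2 fold change -0.47, SE 0.254, edgeR FDR 0.383). F1 male controls measured 39.9, 70.2, 85.0, 68.3 and 60.3 CPM and sGC males 45.5 to 71.0 CPM with a median of 57.1 CPM, inside the control range (log2 fold change -0.15, SE 0.164, edgeR FDR 0.640).

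LMO4, a LIM-only cofactor that joins transcription factors into complexes and helps to pattern cortical areas, was the 1 member called in both F1 tables, in opposite directions. In F1 females it measured 339, 278, 291 and 323 CPM in controls, against 478, 379, 496 and 502 CPM in sGC animals. Every sGC animal lay above every control. LMO4 rose by 0.59 on the log2 scale (SE 0.102, edgeR FDR 0.00876), or 50.6%, and the call held with each of the 8 animals left out in turn. Leaving out control animals 1 and 4 together gave 0.73 (edgeR FDR 0.0172), with the glutamatergic difference still in place as for CUX1.

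The order was the opposite in F1 males, where controls measured 394, 394, 512, 446 and 434 CPM of LMO4 and sGC animals 353 to 391 CPM with a median of 374 CPM. All sGC males lay below all control males, as they did for 2.04% of all genes. LMO4 fell by 0.23 on the log2 scale (SE 0.063, edgeR FDR 0.0364). This call was lost when any of control animals 3, 4 and 5 or sGC animals 1, 2, 3 and 4 was left out (FDR up to 0.0827), while the log2 fold change ranged from -0.27 to -0.17 over all 11 omissions.

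F2 controls measured 284, 284, 303 and 283 CPM of LMO4 and F2 sGC animals 233, 249, 234 and 232 CPM. The groups did not overlap and each was tight, with a coefficient of variation of 3.37% in controls and 3.50% in sGC animals (median of all genes 7.95% and 10.3%). The log2 fold change was -0.28 (SE 0.055), with an FDR of 0.0516 in the edgeR quasi-likelihood test and 0.00235 in the likelihood ratio test. It was called in 2 of the 8 omissions of 1 animal, those of sGC animal 2 and control animal 1, with edgeR FDR from 0.0204 to 0.170 over the 8. F3 controls measured 294, 327, 266 and 320 CPM and F3 sGC animals 356, 337, 364 and 306 CPM. There 3 of the sGC animals lay above all controls and animal 4 lay among them (log2 fold change 0.18, SE 0.079, edgeR FDR 0.298).

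The differences between these responses were tested as interactions, which share the F1 females as the first group. LMO4 responded differently in F1 males than in F1 females (-0.83, SE 0.119, edgeR interaction FDR 0.000102) and in F2 females than in F1 females (-0.88, SE 0.118, FDR 0.000958). For F3 against F1 females the difference was -0.43 (SE 0.138, FDR 0.180). In the comparison of the F1 sexes 2 of 8 members were called, LMO4 and CUX1, against 31.7% of all genes, and between F1 and F2 females 1 of 7, LMO4, against 13.8%. Between F1 and F3 females 0 of 7 were called by the quasi-likelihood test, by the likelihood ratio test and by DESeq2, and the quasi-likelihood test called 0.0981% of all genes. Of the 7, 2 (BHLHE22 and LMO4) had an unadjusted p under 0.05 in the quasi-likelihood test, as did 15.8% of all genes.

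LAMP5 and MDGA1 encode proteins of the membrane. LAMP5 is a lysosome-associated membrane protein of neurons, and it was called in no table. F1 females measured 313, 174, 201 and 252 CPM in controls, against 296, 197, 337 and 325 CPM in sGC animals, and F2 females 305, 199, 250 and 236 CPM in controls, against 230, 225, 301 and 175 CPM in sGC animals. The groups overlapped in both, with log2 fold changes of 0.30 (SE 0.211, edgeR FDR 0.345) and -0.09 (SE 0.158, edgeR FDR 0.833).

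F3 females measured 83.1, 138, 131 and 119 CPM of LAMP5 in controls and 134, 146, 137 and 161 CPM in sGC animals. Control animal 2 lay inside the sGC range and the other 3 controls below it (log2 fold change 0.30, SE 0.140, edgeR FDR 0.313). In F1 males controls measured 210, 245, 223, 228 and 276 CPM and sGC animals 193 to 262 CPM with a median of 226 CPM, with wide overlap (log2 fold change -0.07, SE 0.082, edgeR FDR 0.633).

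MDGA1, a GPI-anchored surface protein of upper layer neurons that binds neuroligins and limits synapse formation, had a log2 fold change below 0 in all 4 tables. F1 females measured 16.8, 18.2, 19.4 and 18.2 CPM in controls, against 9.57, 12.8, 14.5 and 10.9 CPM in sGC animals. Every sGC animal lay below every control, and with CUX1 and LMO4 this made 3 of 8 members without overlap, against 23.2% of all genes. MDGA1 fell by 0.60 on the log2 scale (SE 0.128, edgeR FDR 0.0182), or 34.2%. Without control animal 3 the FDR was 0.0626, and without control animals 1 and 4 together it was 0.0449. The part of the F1 female cell type marker differences in this fall was not tested.

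In F2 females MDGA1 measured 17.2, 18.4, 30.6 and 23.4 CPM in controls, against 11.7, 20.1, 11.1 and 7.24 CPM in sGC animals. Once more 3 sGC animals lay below all controls and animal 2 among them (log2 fold change -0.84, SE 0.269, edgeR FDR 0.162). The FDR was 0.0156 without animal 2, the 1 of 8 omissions that gave a call, and up to 0.413 without another. F3 females measured 17.0, 21.0, 15.8 and 19.4 CPM in controls, against 15.9, 17.7, 14.2 and 10.4 CPM in sGC animals, with overlap (log2 fold change -0.32, SE 0.156, edgeR FDR 0.330). F1 male controls measured 13.0, 12.1, 23.3, 19.6 and 12.7 CPM and sGC males 9.60 to 14.8 CPM with a median of 11.0 CPM. Control animals 3 and 4 lay above all sGC males and the other 3 within their range (log2 fold change -0.45, SE 0.178, unadjusted p = 0.0254 and FDR 0.134 in edgeR).

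**Figure D3:**
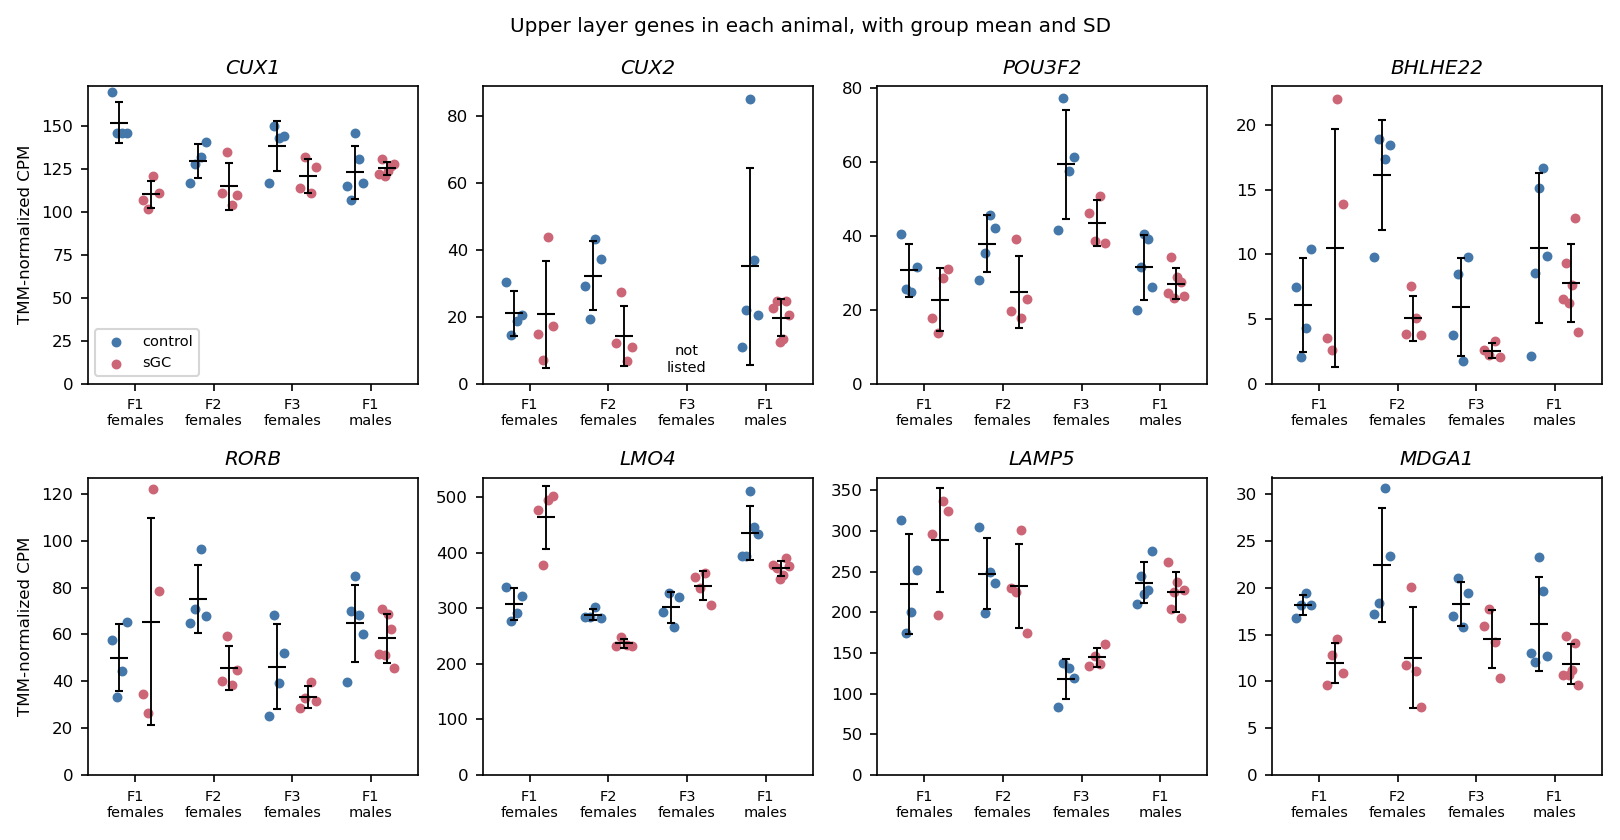
TMM-normalized CPM of the 8 listed members in each animal, control in blue and sGC in red, with the group mean and SD in black, for the 4 tables (levels are comparable within a table only). The F1 female groups did not overlap for CUX1, LMO4 and MDGA1, nor the F2 groups for BHLHE22, RORB and LMO4, and in F2 females sGC animal 2 was the highest sGC animal for all members but LAMP5.

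In F2 females sGC animal 2 was the highest of the 4 sGC animals for 7 of the 8 members, LAMP5 being the exception. With that animal left out, 5 of the 7 tested members were called (POU3F2, CUX2, RORB, LMO4 and MDGA1), and calls over all genes increased from 31 to 487 of 11180 (4.36%). Without control animal 1, 2 members (RORB and LMO4) and 245 of 11174 genes (2.19%) were called. Each of the other 6 omissions called 0 members, and 0 genes in all, or 7 genes without sGC animal 4. In oligodendrocyte markers the same table had sums of 5065, 3803, 3256 and 3283 CPM in controls, against 8834, 4856, 11384 and 7381 CPM in sGC animals. The lowest sGC sum was that of animal 2. All 8 oligodendrocyte markers tested had an unadjusted p under 0.05 toward higher levels, with 0 called by FDR. The share of all genes that was higher at that unadjusted threshold is not given here. MBP and MOBP, which define oligodendrocytes, were not listed. In F1 males, the table where LMO4 fell, all 8 oligodendrocyte markers tested were called higher, against 9.22% of all genes called. The part of oligodendrocyte markers in the F2 and F1 male differences was not tested.

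The members varied together between animals. For each pair of members in each table, log2 CPM was correlated over animals after the mean of each treatment group had been subtracted, so the difference between sGC and control does not enter. The median Pearson's r was 0.81 over 28 pairs in F1 females, 0.73 over 28 pairs in F2 females, 0.51 over 21 pairs in F3 females and 0.67 over 28 pairs in F1 males. Of these pairs 25, 23, 18 and 21 were positive. Over all pairs of genes in F1 females 49.9% were positive, and the median r over all pairs of genes was 0.00 to 2 decimals in each table. Pairs of members share the same libraries, depth and scaling.

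A permutation of animals within treatment groups gave each pair an exact two-sided p, which cannot go below 0.00174 with the 576 permutations of a female table. Over all 105 pairs in the 4 tables, 12 Pearson correlations had an adjusted p under 0.05 (4 in F1 females, 1 in F2 females, 1 in F3 females and 6 in F1 males). By Spearman's rho 1 pair did, POU3F2 and RORB in F1 males.

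POU3F2 and RORB had r between 0.87 and 0.92 in the 4 tables. In F3 females r was 0.89 (n = 8, exact permutation p = 0.0278, adjusted 0.0972) and rho 0.69 (exact permutation p = 0.101, adjusted 0.216), and r was 0.48 without the 2 farthest animals. In F1 males r was 0.92 (n = 11, exact permutation p = 0.000231, adjusted 0.0243) and rho 0.90 (p = 0.000336, adjusted 0.0352), and r was 0.79 without the 2 animals farthest from the median. F2 females gave r of 0.87 (n = 8, exact permutation p = 0.00521, adjusted 0.0456) and rho of 0.93 (exact permutation p = 0.0104, adjusted 0.0938), and r was 0.74 without the 2 farthest animals. RORB and BHLHE22 varied together most closely in F1 females, where r was 0.98 (n = 8, exact permutation p = 0.00174, adjusted 0.0456), rho was 0.95 (exact permutation p = 0.00347, adjusted 0.0911) and r was 0.98 without the 2 farthest animals. Elsewhere the r of that pair was 0.59 in F2 females, 0.62 in F3 females and 0.87 in F1 males, and in F2 females it was 0.14 without the 2 farthest animals.

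CUX1 and CUX2, the paralogs, had r of 0.87, 0.81 and 0.82 in F1 females, F2 females and F1 males. Their exact permutation p-values were 0.00347, 0.0573 and 0.0248 (adjusted 0.0456, 0.137 and 0.0932), the rho values were 0.88, 0.74 and 0.80 (exact permutation p = 0.00694, 0.0660 and 0.0143, adjusted 0.0938, 0.169 and 0.0938), and r without the 2 farthest animals was 0.82, 0.51 and 0.80. LAMP5 took part in the covariation only in some tables. LMO4 and LAMP5 had r of 0.97 in F1 females (n = 8, exact permutation p = 0.00347, adjusted 0.0456, rho 0.98 with p = 0.00521, adjusted 0.0938, r of 0.95 without the 2 farthest animals), and 0.06, -0.11 and -0.13 in F2 females, F3 females and F1 males. LAMP5 and MDGA1 had r between -0.53 and 0.22. MDGA1 also stood apart in F1 females, where its r with the other members ranged from -0.29 (LMO4) to 0.35 (RORB).

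**Figure D4:**
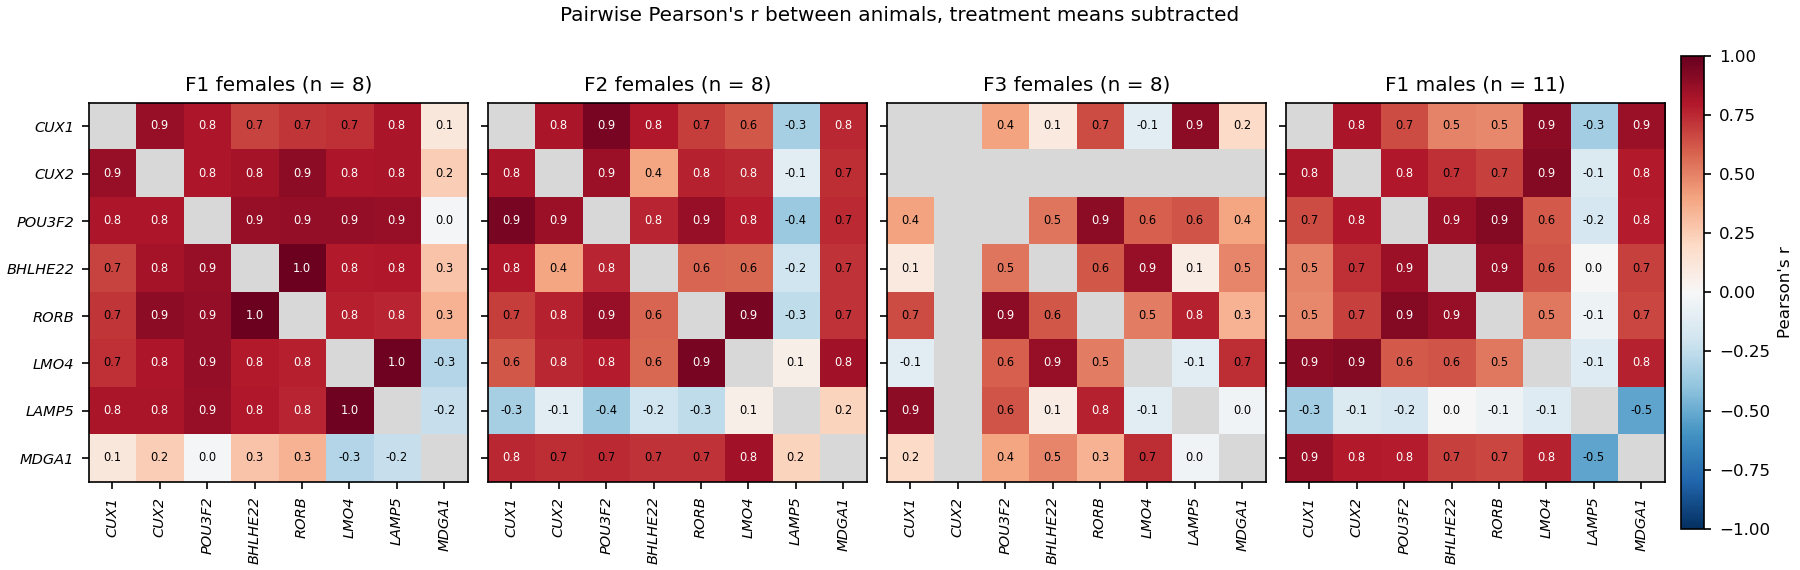
Pearson's r between animals for every pair of members in each table, after subtracting treatment means, with red positive, blue negative and grey for the diagonal and the unlisted CUX2 in F3 females. The block of POU3F2, BHLHE22 and RORB is positive in all 4 tables, and so is each of these genes with CUX1 and with LMO4. The lowest r among these pairs is 0.10, for CUX1 and BHLHE22. LAMP5, in contrast, is positive with most members in F1 females and near or below 0 with most of them in F2 females and F1 males.

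Which other genes followed the same animals was described with the mean z-score of the 7 members listed in every table, over all 35 animals, with each gene centred within its group. Among 10725 genes, the 5 most like this mean were CPNE4 (r = 0.94, rho = 0.91), AJAP1 (0.89 and 0.83), CA4 (0.89 and 0.81), WNT5A (0.88 and 0.86) and TAC3 (0.88 and 0.83). The 5 most unlike it were PTPRE, FANCD2, PPFIA4, SEMA4A and GRIK3, with r from -0.87 to -0.85. CPNE4 is a calcium-dependent membrane-binding protein, WNT5A a secreted WNT ligand, TAC3 the precursor of neurokinin B and GRIK3 a kainate receptor subunit. TAC3 fell in F2 females by 0.89 on the log2 scale (edgeR FDR 0.0334), and the other 4 genes most like the mean were called in no table.

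The sums of some marker lists followed the members from animal to animal in every table, and those of others did not. With the members' mean z-score, the sum of the other upper layer genes had r of 0.80 (rho 0.82, and r 0.78 without the 2 animals farthest from its median). The deep layer sum had r of -0.79 (rho -0.68, r -0.73 without the 2 farthest) and the oligodendrocyte sum r of -0.80 (rho -0.76, r -0.79 without the 2 farthest). Within the 4 tables the r with the deep layer sum was -0.67, -0.81, -0.98 and -0.84 in F1, F2 and F3 females and F1 males, and with the oligodendrocyte sum -0.81, -0.76, -0.91 and -0.75. The glutamatergic sum had r of 0.07 (rho -0.14, r -0.29 without the 2 farthest), with 0.34, -0.27, -0.78 and -0.69 in F1, F2 and F3 females and F1 males, and the astrocyte sum had r of -0.32. In the same order of tables, the general neuron sum had r of 0.81, -0.70, -0.82 and -0.88. The striatal sum had 0.70, -0.86, 0.18 and -0.58, and the sum of interneuron markers had 0.86, -0.79, 0.51 and 0.43. Among single members, r with the oligodendrocyte sum ranged from -0.82 for POU3F2 to -0.30 for LAMP5. These are descriptions over the same 35 libraries, and the part of any of these cell type markers in the covariation was not tested.

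**Figure D5:**
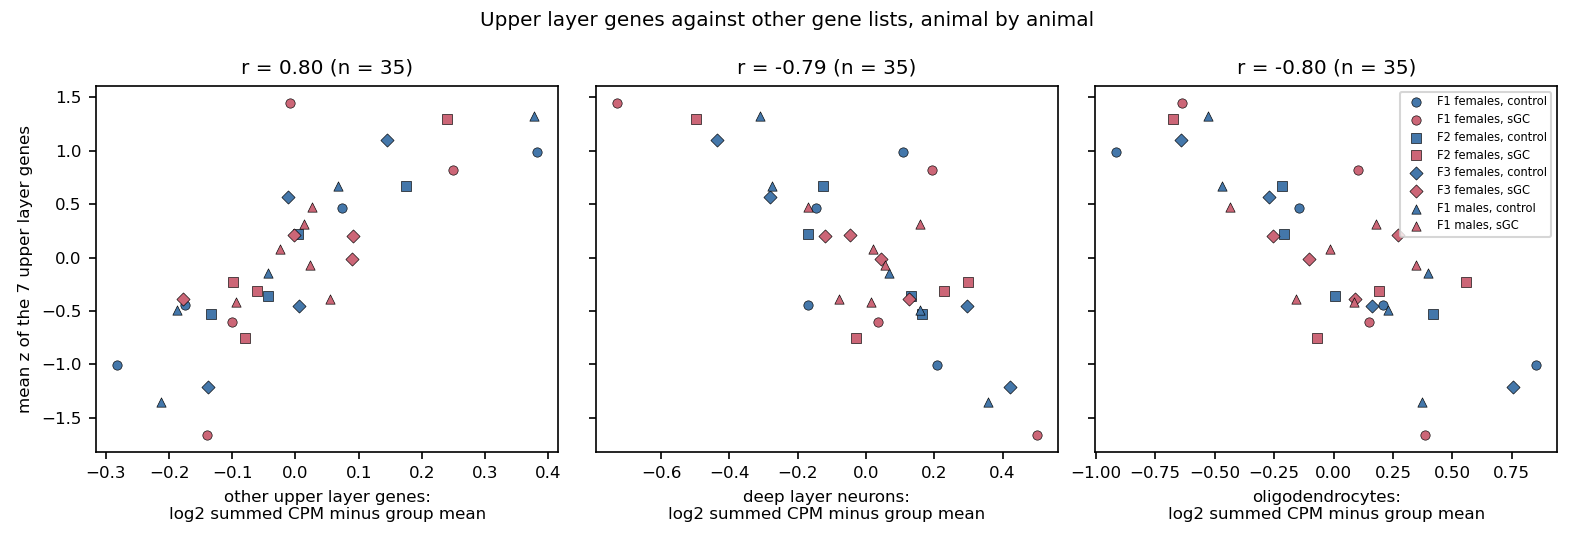
Mean z-score of the 7 members listed in every table (vertical axis) against the log2 summed CPM of 3 gene lists minus the group mean (horizontal axes), 1 point for each of the 35 animals, with shapes for the tables and colours for treatment. The members' mean rises with the other upper layer genes (r = 0.80) and declines with deep layer (r = -0.79) and oligodendrocyte (r = -0.80) sums.

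Other upper layer genes, a list of 19, showed both directions in F1 females. There 1 of the 17 tested was called higher, MEF2C, a transcription factor of cortical excitatory neurons (log2 fold change 0.93, edgeR FDR 0.0239), and 4 lower. Of all genes 16.5% were called. The 4 were the calcium-binding protein CALB1 (-1.59, edgeR FDR 0.0246), the corepressor TLE1 (-0.96, FDR 0.0207), WFS1 of the endoplasmic reticulum (-0.72, FDR 0.0189) and the adhesion protein NECTIN3 (-0.50, FDR 0.0334). CALB1 had a control level of 96.0 ± 52.1 CPM and an sGC level of 31.9 ± 4.78 CPM (SD, n = 4 each). Striatal sums also differed in this table, and their part was not tested. CALB1 was also lower, without a call, in F2 females (-1.05, edgeR FDR 0.0556), F3 females (-1.67, FDR 0.0642) and F1 males (-0.98, FDR 0.0690). The study reported lower CALB1 expression in sGC animals of every group. The striatal markers had a median log2 fold change of -2.34 in F1 females and -0.80 in F3 females. It was 0.23 in F2 females and 0.10 in F1 males.

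MEF2C took the directions that LMO4 had in all 4 tables. It fell in F2 females, as the 1 gene called of 16 tested (-0.54, edgeR FDR 0.0490), and in F1 males, as the 1 called of 18 (-0.38, edgeR FDR 0.0165). Of all genes 0.278% were called in F2 females and 9.22% in F1 males. At an unadjusted p under 0.05 in the edgeR test, 7 of the 16 were lower in F2 females and 0 higher. There 7.35% of all genes were lower. The list's sum in F2 females was 1328 to 1645 CPM in controls and 1023 to 1294 CPM in sGC animals. In F3 females MEF2C was not called (0.40, edgeR FDR 0.175), and none of the 16 tested there was called, against 1.34% of all genes. However, 3 had an unadjusted p under 0.05 toward higher and 5 toward lower levels. At that threshold 8.07% of all genes were lower in F3 females, and the share that was higher is not given here. MEF2C was singled out for this comparison after its values were seen.

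Of 12 relatives and binding partners of the members tested in F1 females 3 were called higher and 0 lower, against 16.5% of all genes. The 3 were the repressor PRDM8, which works with BHLHE22 (0.72, edgeR FDR 0.00557), LDB2, a LIM domain-binding partner of LMO proteins (0.64, FDR 0.0130), and the lysosomal protein LAMP2 (0.21, FDR 0.0395). In F1 males 1 of 13 was called, LAMP1, which was higher (0.26, edgeR FDR 0.0132), against 9.22% of all genes. None of 13 was called in F2 females, where 1 was lower at an unadjusted p under 0.05, as were 7.35% of all genes. None of 13 was called in F3 females, where 1 was higher at that threshold, with no share of all genes given here. Of all genes 0.278% were called in F2 females and 1.34% in F3 females. Among deep layer genes, 1 of 9 was called in any table, CTGF, a marker of the deepest cortical neurons, which rose in F2 females (1.06, edgeR FDR 0.0443). All 9 deep layer genes tested had a log2 fold change above 0 in F2 females, with a median of 0.58. Of all genes 47.9% were below 0. Of the 9, 7 were higher at an unadjusted p under 0.05. At that threshold 7.35% of all genes were lower, and the share that was higher is not given here. All 7 upper layer members tested in F2 females, without BHLHE22, were below 0. The deep layer median was also above 0 in F1 females (0.34, with 2 of the 9 genes below 0) and in F3 females (0.40, with 2 below 0). In F1 males it was 0.05, with 3 below 0. At an unadjusted p under 0.05, 3 deep layer genes were higher and 1 lower in F1 females. The same counts held in F3 females, and F1 males had 0 in either direction. The members' median was 0.14 in F1 females, -0.32 in F3 females and -0.23 in F1 males.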

How the data were processed

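For each gene symbol, the authors deposited raw read counts in 4 tables, beside columns of their own edgeR comparison (fold changes, p-values, FDR), which were not used. Per the labels, TopHat2 and edgeR were used. The read counter and genome build are not given in the sources used here. All count columns matched a sample by title. Members and lists were chosen with earlier results of these data known.

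The analysis used R 4.3.3, edgeR 4.0.16 (filterByExpr, minimum count 10 and total 15, TMM, quasi-likelihood F test, two-sided) and limma 3.58.1, and FDR was calculated by Benjamini-Hochberg over 11268, 11132, 11420 and 11524 genes in F1, F2 and F3 females and F1 males. Genes were named as members, as the up to 4 smallest FDR under 0.05 per fixed list and table, and as the 5 genes most and least like the members' mean. Correlations used log2 CPM with a prior count of 2, and list sums a pseudocount of 1. Reads of paralogs such as CUX1 and CUX2 cannot be separated further. Methods were tested on simulated data. Alternatives were the likelihood ratio test, DESeq2 1.42.0, RLE and upper-quartile scaling, no filter, CPM above 1, a replicate block, each animal left out and, chosen after seeing the data, 2 F1 female controls left out together.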

Additional observations from a re-analysis of the deposited data

Results flagged for a closer look

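The response to sGC differed between groups by an interaction test for LMO4 and CUX1. The LMO4 response was lower by 0.83 on the log2 scale in F1 males than in F1 females (log2 difference -0.83) and by 0.88 in F2 than in F1 females (-0.88), and the CUX1 response differed by 0.49 between F1 males and F1 females. The glutamatergic sum was 211 to 1225 CPM in F1 female controls and 1091 to 4479 CPM in F1 female sGC animals, and the part of that difference in these interactions was not tested.

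In 4 of the 62 groups of 4 to 6 animals examined, 1 animal stood apart by Dixon's criterion, which chance alone meets in about 1 of 20 groups. For BHLHE22, F2 control animal 1 had 9.83 CPM where the others had 17.4 to 18.9 CPM. CUX1 was 170 CPM in F1 female control animal 1 and 146 CPM in the other 3. For LMO4, F2 control animal 3 had 303 CPM where the others had 283 to 284 CPM, and F2 sGC animal 2 had 249 CPM where the others had 232 to 234 CPM.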

How the results depend on the processing

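The number of members called did not move by over 1.5 times in F1 females (3), in F1 females against F1 males (2) or in F1 against F2 females (1) with any other test, scaling or filter tried. In F2 females 0 became 3 with the likelihood ratio test, 2 with DESeq2, and 1, LMO4, with upper-quartile scaling and with no filter, and the cause was not tested. Leaving out 1 animal at a time gave 0 to 5 in F2 females, 0 to 1 in F3 females, 0 to 1 in F1 males, 3 in F1 females but for 2 without control animal 3, and 2 to 3 for the F1 sexes, where LAMP5 joined without F1 female control animal 1 or sGC animal 2. The median pairwise r then ranged from 0.68 to 0.84 in F1 females, 0.41 to 0.77 in F2 females, 0.35 to 0.64 in F3 females and 0.56 to 0.74 in F1 males, with sGC animal 2 giving the lowest value in F1 and F2 females.

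Directions turned only in members that were not called. With 1 animal left out, log2 fold changes ranged from -0.69 to 0.26 for CUX2 and from -0.11 to 0.64 for RORB in F1 females, from -0.24 to 0.026 for LAMP5 in F2 females and from -0.022 to 0.093 for CUX1 in F1 males. For F1 against F3 females the difference in response then ranged from -0.22 to 0.17 for POU3F2 and from -0.19 to 0.10 for LAMP5, and upper-quartile scaling gave 0.010 for LAMP5. Without F1 female control animals 1 and 4, CUX2 was 0.34 in F1 females, POU3F2 differed by -0.079 between F1 males and F1 females, and the counts were 3, 3 (LAMP5 joined), 1 and 0.

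Replicate numbers did not pair the animals (correlations of deviations from -0.33 to 0.34, and the best match in 2 of 17 animals). With the replicate number as a block, 0 members were called in F1 males (LMO4, FDR 0.0912), POU3F2 differed by 0.020 between F1 and F3 females, and no other call changed.

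Over all genes, the likelihood ratio test, DESeq2, upper-quartile scaling, no filter and the block called 534, 473, 70, 76 and 53 in F2 females against 31. In F3 females the likelihood ratio test, DESeq2 and the block called 616, 632 and 67 against 153, the block called 1080 in F1 females against 1864, and DESeq2 called 1590 in F1 males against 1062. For F1 against F3 females, 11 became 114, 201, 18 and 0 with the likelihood ratio test, DESeq2, upper-quartile scaling and the block. BHLHE22 had 26 reads in its lowest library, which limits the precision of its level there.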
